A study of Homo sapiens with 4 samples.

Results

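The genes described here encode the subunits of Mediator and Integrator, the large complexes that work with RNA polymerase II (Pol II) at its promoters. They were taken from the deposited gene table by symbol: every protein-coding entry named MED plus a number (with or without a final L), CCNC, CDK8, CDK19, or INTS plus a number. This gave 47 genes of 60048 in the table, 33 for Mediator and 14 for Integrator. Nascent RNA was measured in HCT116, a human colorectal carcinoma cell line, by EU-seq: newly made RNA is labelled with 5-ethynyl uridine (EU), captured and sequenced. All 4 libraries came from the RAD21-mAC genotype, in which the cohesin subunit RAD21 carries a tag. The 2 control libraries were from cells given DMSO, and the 2 auxin libraries were from cells in which RAD21 was to be depleted by an auxin, indole-3-acetic acid, at 0.5 mM over 3 h. Cells of both groups were labelled with 0.5 mM EU for 20 min, and labelled RNA of Drosophila S2 cells was mixed in before capture. The control cells also carry the tagged RAD21, a line without the tag was not analysed here, and the labels do not say whether replicates were separate cultures, so p-values measure only the spread between these libraries.

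Mediator carries signals from DNA-bound transcription factors to Pol II. Its head and middle modules contact the polymerase, its tail contacts the factors, MED14 holds the modules together, and a detachable kinase module (CDK8 or CDK19 with cyclin C, MED12 or MED12L, and MED13 or MED13L) controls its binding to Pol II. Integrator binds Pol II paused near promoters. It cuts the nascent RNA with the endonuclease INTS11, brings the phosphatase PP2A to the polymerase, and makes the 3′ ends of small nuclear RNAs (snRNAs).

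The deposited values are scaled signal per gene, summed over each gene's span. They summed to between 61135244 and 93113007 in the 4 libraries, with 46570 to 47311 genes above 0. How many reads stand behind each value is not known, so no counting interval is given. Values below are scaled signal: the deposited value divided by a factor per library that puts the libraries on one scale. Of 39464 genes tested with limma on log2(scaled signal + 1), 289 passed an adjusted p of 0.05, and 131 of them were higher and 158 lower in auxin. RAD21 RNA itself gave 5154 and 7190 in control and 5893 and 6264 in auxin, which does not measure the loss of the protein. All 7 epithelial marker genes were present, at 23.8 to 2327 scaled signal per kb in control, against 0.195 to 37.3 per kb for 7 markers of other cell types, none of them at 0 in every library. Of those 7, 6 were tested and none was called, but all 6 had positive log2 fold changes (median 0.38), led in level by COL1A1 (unadjusted p 0.020). Their summed scaled signal was 896 to 1148 in control and 1261 to 1520.4 in auxin. Among the 7 epithelial markers none was called, with 2 positive and 5 negative log2 fold changes (median -0.18). In that list 3 had a limma unadjusted p under 0.05, beside 10.2% of all tested genes. CDH1 had its most positive value (0.55, limma adjusted p 0.0578) and KRT19 its most negative (-0.37, limma adjusted p 0.261). The part of either marker list in the results below was not tested.

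Of the Mediator and Integrator genes, 1 fell in auxin and none rose. All 47 passed the filter on low values. The gene that fell was MED13L, a kinase module subunit, to 0.513 times its control level. The call rate over all tested genes was 0.732%, and for lower calls alone 0.4%. Among protein-coding genes at least as high as the lowest member, whose mean was 503, it was 1.59%, so 1 call in 47 genes is close to the background. The median log2 fold change of the 47 genes was 0.010, beside 0.0089 over all tested genes, with 26 values above 0 and 21 below. For 39 of the 47 genes the value was smaller than its standard error, so such tallies count signs of estimates and not directions of change. The size of the change was under 0.2 on the log2 scale for 42 of the 47 genes (89.4%), and for 59.8% of protein-coding genes at or above the lowest member. For 40 of the 47, the 95% interval of the fold change lay within 1.5-fold in either direction. The plot of log2 fold changes by module shows MED13L apart from the other 46 genes.

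**Figure D1:**
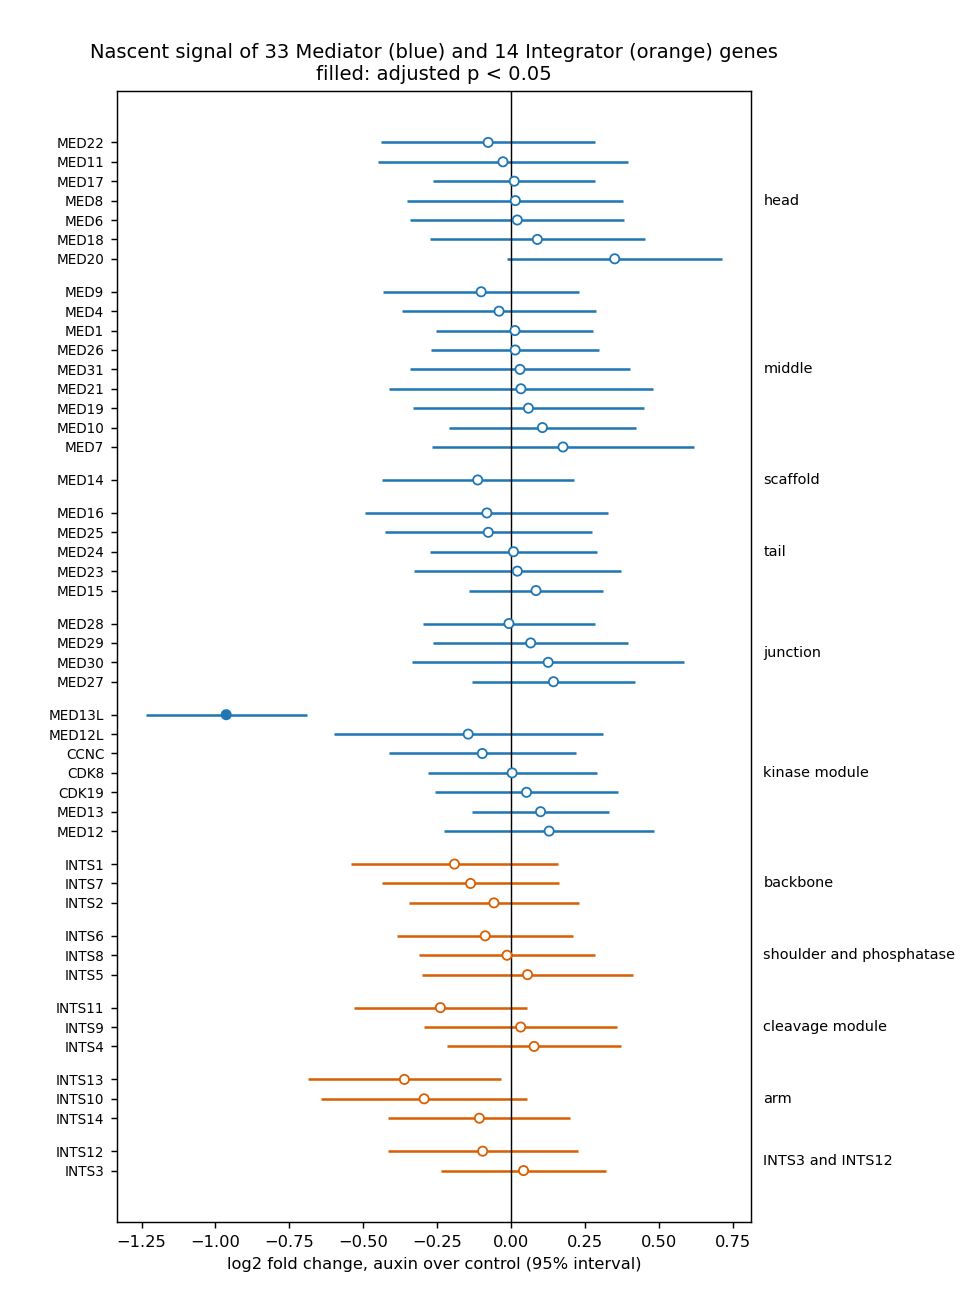
Log2 fold change, auxin over control, of the 47 genes by module, with bars for the 95% interval from limma (2 libraries per group). MED13L lies at -0.96, and the other genes lie between -0.36 and 0.35.

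In the kinase module, 1 of 7 genes fell and none rose. MED13L encodes one of the alternative subunits that tether the kinase to the rest of Mediator. It lies on chromosome 12, on the minus strand, from 115958576 to 116277693 (GRCh38), a span of 319.1 kb. Only 3.24% of protein-coding genes in the table are longer. Its scaled signal was 34018 and 39779 in the control libraries and 17316 and 20544 in the auxin libraries. Every control value was above every auxin value, with means of 36899 ± 4074 and 18930 ± 2282 (SD, n = 2 each). This made a log2 fold change of -0.96, whose standard error was 0.12 and whose 95% interval ran from -1.24 to -0.69 (limma adjusted p 0.00664). Taken by replicate number, the differences were -0.97 and -0.95. Per kb, its signal went from 116 to 59.3. On the values as deposited, without rescaling, the libraries read 33994 and 40353 in control and 14124 and 24845 in auxin, and the call was lost (log2 fold change -0.98, adjusted p 0.999999). Among protein-coding genes of at least 300 kb, 2.37% were called, 12 lower and 5 higher.

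MED13, the alternative to MED13L in the module, was not called. It gave 19787 and 20570.5 in control and 21028 and 22210 in auxin, so both auxin values were the higher ones. Its log2 fold change was 0.10, with a 95% interval from -0.13 to 0.33. Signal per kb in control was 164 for MED13 and 116 for MED13L, and in auxin 176 and 59.3. The difference between the changes of these genes was not tested.

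The MED12 pair encodes the subunits that activate the kinase. MED12 read 1669 and 1943 in control and 1954 and 1983 in auxin, a log2 fold change of 0.13 (standard error 0.16). MED12L, which spans 350.2 kb and is the longest of the 47 genes, read 2123 and 2755 against 1825 and 2620 in auxin, a log2 fold change of -0.15 (standard error 0.20). The MED12 libraries did not overlap between groups and the MED12L libraries did, and neither gene passed the test. MED12L had the lowest signal per kb of all members, 6.96 in control and 6.35 in auxin, while MED12 had 75.7 and 82.5. Other genes cover 42.9% of the MED12L span, and 6 of these 9 genes were tested.

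The kinases CDK8 and CDK19 and their cyclin were also not called. CDK8 read 5939 and 5559 in control and 5828 and 5689 in auxin, with a log2 fold change of 0.0031. CDK19 read 3153 and 3175 against 3250.0 and 3310.3, with a log2 fold change of 0.05. Signal per kb was 38.0 in control and 38.1 in auxin for CDK8, above the 15.4 and 15.9 of CDK19. CCNC, which encodes cyclin C, read 4417 and 5173 against 4623 and 4315, a log2 fold change of -0.10, but its whole span is shared with another tested gene, TSTD3, so its signal is not its own alone. Their 95% intervals reached from -0.28 to 0.29 for CDK8, from -0.26 to 0.36 for CDK19 and from -0.41 to 0.22 for CCNC. The plot of kinase module levels shows MED13L as the gene whose auxin points lie farthest below control.

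**Figure D2:**
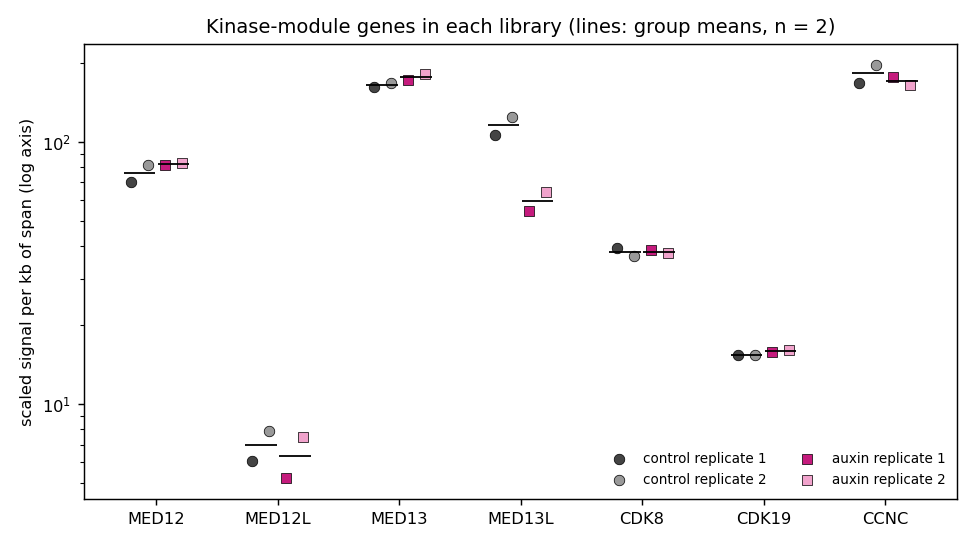
Scaled signal per kb (log axis) of the 7 kinase module genes in each of the 4 libraries. MED13L goes from a mean of 116 in control to 59.3 in auxin, and MED12L is the lowest at 6.96 and 6.35.

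Promoter windows are shown for MED13L, the only gene called, for MED12L, the kinase module gene next to it in the order of change, and for MED20 and INTS13, which had the largest changes among the other members. Each runs from 250 bases before to 50 after a RefSeq start (GRCh38.p14), 5′ to 3′ on the gene's strand. They are MED13L at chr12:116277644-116277943 (minus), MED12L at chr3:151085414-151085713 (plus), MED20 at chr6:41920894-41921193 (minus) and INTS13 at chr12:26937932-26938231 (minus). Capitals mark matches, on either strand, to the CCAAT box, to the GC box, spelled GGGCGG, and to the NRF1 motif. The MED12L window holds a CCAAT box alone, the MED20 window only GC boxes, the MED13L window both kinds, and the INTS13 window all the 3 motifs.
MED13L: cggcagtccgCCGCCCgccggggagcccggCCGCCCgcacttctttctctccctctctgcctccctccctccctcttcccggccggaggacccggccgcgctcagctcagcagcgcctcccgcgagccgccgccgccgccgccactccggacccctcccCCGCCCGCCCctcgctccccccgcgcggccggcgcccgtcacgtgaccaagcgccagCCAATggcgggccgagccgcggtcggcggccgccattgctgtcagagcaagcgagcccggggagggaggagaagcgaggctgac
MED12L: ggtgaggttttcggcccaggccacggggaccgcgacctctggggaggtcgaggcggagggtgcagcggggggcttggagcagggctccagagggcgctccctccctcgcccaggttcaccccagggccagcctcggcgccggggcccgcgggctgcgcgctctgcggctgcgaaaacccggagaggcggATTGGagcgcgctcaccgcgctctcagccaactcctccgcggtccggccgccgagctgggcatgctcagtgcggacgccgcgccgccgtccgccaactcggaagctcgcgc
MED20: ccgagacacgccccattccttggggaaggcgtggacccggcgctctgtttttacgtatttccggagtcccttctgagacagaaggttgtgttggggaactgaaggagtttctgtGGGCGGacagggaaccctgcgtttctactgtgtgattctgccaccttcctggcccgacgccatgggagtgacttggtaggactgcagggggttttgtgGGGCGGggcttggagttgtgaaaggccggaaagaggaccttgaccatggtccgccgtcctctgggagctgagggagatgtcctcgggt
INTS13: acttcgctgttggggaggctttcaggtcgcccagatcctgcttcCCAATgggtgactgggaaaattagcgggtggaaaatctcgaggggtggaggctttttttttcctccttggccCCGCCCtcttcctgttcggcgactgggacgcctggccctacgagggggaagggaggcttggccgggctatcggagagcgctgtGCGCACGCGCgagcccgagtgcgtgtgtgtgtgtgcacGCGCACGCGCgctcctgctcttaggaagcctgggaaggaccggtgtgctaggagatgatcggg
The MED13L window holds 78.3% G and C and 43 CpG pairs, the highest G and C content of any member window. The window of INTS13 holds 63.0% and 25 CpG pairs, and that of MED20 59.3% and 16. The RefSeq start of MED13L and that of INTS13 equal the start in the deposited table. The RefSeq start of MED12L lies 1225 bases upstream of the table's, and that of MED20 lies 196 bases downstream of it.

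Other entries of the table inside the MED13L span moved the same way. Inside it lie 4 other tested genes, and all 4 had negative log2 fold changes with no overlap between groups, but none was called. AC130895.1, 96.4 to 103 kb into MED13L on the same strand, read 643 and 755 in control and 266 and 396 in auxin, a log2 fold change of -1.10 (limma adjusted p 0.0808). AC012157.2, near the far end at 315 to 317 kb and on the opposite strand, read 472 and 554 against 286 and 363, a log2 fold change of -0.67 (limma adjusted p 0.265). The others had low signal and wide errors. RNU6-1188P read 22.9 and 21.5 against 13.4 and 5.61 (standard error 0.60), and SNRPGP18 10.2 and 13.3 against 7.14 and 2.25 (standard error 0.79). The signal is not separated by strand: for lncRNAs inside a protein-coding gene, the median log2 ratio of signal per kb to that of the host was -0.057 on the same strand (488 lncRNAs) and 0.012 on the opposite strand (1249). The values of these nested genes are therefore not independent of that of MED13L.

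The genes around MED13L were not called. Upstream of its start, within 900 kb, 21 genes were tested, with 14 positive and 7 negative log2 fold changes and a median of 0.19. Of these, AC090013.1, RNU6-558P and AC083806.3 lie inside RNFT2, and AC083806.2, AC127164.1 and AC026368.1 lie inside FBXW8. The 21 values are therefore not independent of each other. LINC02457, 204 kb from the start, read 4135 and 7322 in control and 6766 and 11097 in auxin, and its groups overlap. RNFT2 read 12037 and 9982 against 14428 and 14081, a log2 fold change of 0.38 (limma adjusted p 0.277). TESC, 761 kb away, was the upstream gene with the smallest adjusted p, 1619 and 1645 against 850.1 and 1100.4 (log2 fold change -0.75, limma adjusted p 0.121). Beyond the end of MED13L, up to 1200 kb from its start, only 3 genes were tested, with a median log2 fold change of -0.074. The plot of the MED13L region shows these values by distance.

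**Figure D3:**
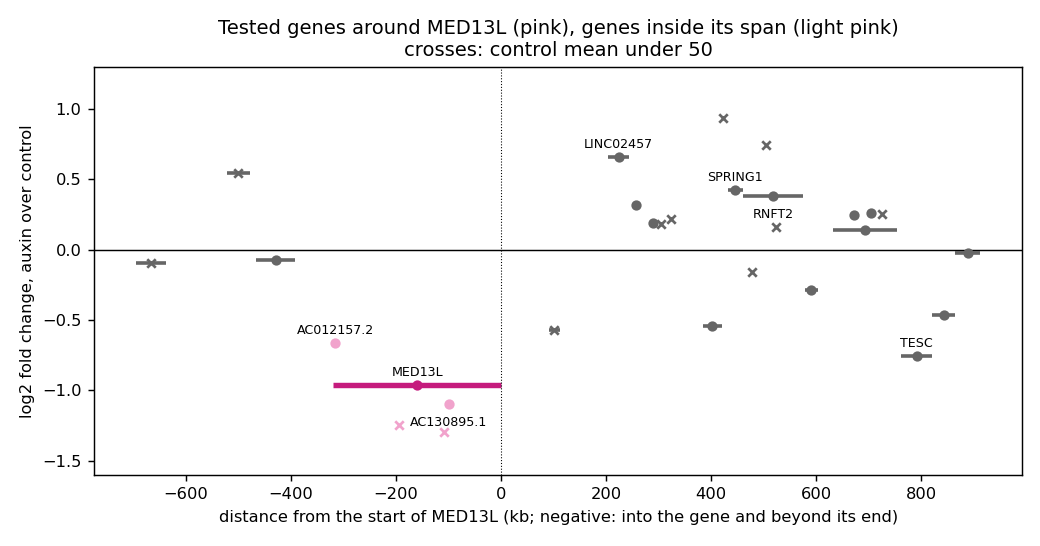
Log2 fold change, auxin over control, of tested genes by distance in kb from the MED13L start, where lines give each gene's span and crosses are genes with a control mean under 50. MED13L at -0.96 and the 4 genes inside it are all below 0. The 21 upstream genes, some of which lie inside others, have a median of 0.19.

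In the Mediator head, which contacts the polymerase, none of 7 genes was called, and the median log2 fold change was 0.014. MED20 had the most positive value of all members, with 1797 and 1554 in control and 2250 and 2018 in auxin. Its auxin libraries were both above its control libraries, but the log2 fold change of 0.35 (standard error 0.16) had a limma adjusted p of 0.51. MED17, the central subunit of the head, read 6871 and 7115 against 7163 and 6923, with a log2 fold change of 0.01. Other tested genes share 91.6% of its span. MED6, MED8, MED11, MED18 and MED22 had log2 fold changes between -0.08 and 0.09. MED11, the shortest member at 2.18 kb, had 308 signal per kb in control and 303 in auxin.

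None of the 9 middle module genes was called either, and their median was 0.030. MED1, which nuclear receptors bind, read 8317 and 8784 in control and 8629 and 8615 in auxin, a log2 fold change of 0.01 with a 95% interval from -0.25 to 0.28. MED26, which links Mediator to elongation factors, read 14543 and 11977 against 12871 and 13788, also 0.01, but its whole span is shared with other tested genes. MED7 read 487 and 456 against 581 and 488, a log2 fold change of 0.18 (standard error 0.20). The MED7 groups barely separate, while those of MED1 and MED26 overlap. MED7 had the lowest signal of all members, and 79.7% of its span is shared. MED10 did not overlap between groups, with 2904 and 2898 against 3225 and 3021 and a log2 fold change of 0.11. MED4, MED9, MED19, MED21 and MED31 lay between -0.10 and 0.06.

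MED14, the scaffold of Mediator, read 2869 and 2970 in control and 2820 and 2582 in auxin. Both auxin values were below both control values, and the log2 fold change of -0.11 (standard error 0.15) was not called. Among the 5 tail genes, MED15, MED16, MED23, MED24 and MED25, which contact transcription factors, values lay between -0.08 and 0.08. MED15 was the highest of them per kb, at 374 in control and 397 in auxin. Of the 4 genes at the junction of head and tail, MED27 had the largest change, with 14907 and 13080.0 in control and 14380 and 16529 in auxin, overlapping groups and a log2 fold change of 0.14 (standard error 0.12). MED28, MED29 and MED30 lay between -0.01 and 0.12. Without MED13L, the 32 other Mediator genes had log2 fold changes from -0.15 to 0.35.

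None of the 14 Integrator genes was called, and their median log2 fold change was -0.09, with 4 positive and 10 negative values. In Mediator the median was 0.014, with 22 positive and 11 negative. No test was made of this difference between the complexes. Both auxin libraries were below both control libraries for 6 Integrator genes (INTS2, INTS10, INTS11, INTS12, INTS13 and INTS14) and above them for none. In Mediator they were below for 2 genes (MED13L and MED14) and above for 6 (MED7, MED10, MED12, MED13, MED20 and CDK19). Over all tested genes, 19.6% were below in this way and 18.6% above, and among protein-coding genes at or above the lowest member 27.6% and 21.1%. The 47 members together, with 8 below and 6 above, did not exceed these shares. The 6 of 14 Integrator genes below are a larger share than either background, but the gene number is small and no test was made.

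The cleavage module holds the endonuclease. INTS11, its catalytic subunit, read 6596 and 7162 in control and 6146 and 5514 in auxin. All its auxin values were the lower ones, and the log2 fold change of -0.24 (standard error 0.13) had a limma adjusted p of 0.619. INTS9, its partner without catalytic activity, read 4889 and 4016 against 4651 and 4413, a log2 fold change of 0.03. INTS4, the scaffold of the module, read 5153 and 4714 against 5297 and 5107, a log2 fold change of 0.08 (standard error 0.13). The groups of INTS9 and INTS4 overlap. INTS11 had the highest signal per kb of all 47 genes, 525 in control and 445 in auxin.

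The Integrator arm genes within the rule, INTS10, INTS13 and INTS14, had the most negative median among the Integrator modules, -0.29, with none called. C7orf26, also named INTS15, belongs to the arm too, but its symbol falls outside the rule and it is not in this median. It read 4927 and 3737 in control and 4182 and 3669 in auxin, a log2 fold change of -0.13, with overlapping groups. INTS13 read 2742 and 2839 in control and 2206 and 2138 in auxin, so the groups did not overlap and were each close together. Its log2 fold change was -0.36 (standard error 0.15, 95% interval from -0.69 to -0.04), with an unadjusted p of 0.0331 and a limma adjusted p of 0.414. Over all tested genes 10.2% had an unadjusted p under 0.05, and of the 47 members 2 did, INTS13 and MED13L. INTS10 read 7103 and 6091 against 6082 and 4730, a log2 fold change of -0.29 (standard error 0.16). INTS14 had a log2 fold change of -0.11. The median of the arm genes within the rule is the INTS10 value. The INTS10 value became -0.11 when auxin replicate 2 was left out, -0.17 when control replicate 1 was and -0.47 when auxin replicate 1 was. Leaving out each library in turn gave INTS13 values between -0.38 and -0.34. The INTS10 groups lie next to each other, with the highest auxin value of 6082 just under the lower control value of 6091.

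In the backbone, INTS1 read 7456 and 7154 in control and 7441 and 5494 in auxin. Its log2 fold change of -0.19 rests on the auxin library with 5494, and was 0.026 without it. INTS2 and INTS7 had log2 fold changes of -0.06 and -0.14. INTS6, which recruits the phosphatase, read 7188 and 6838 against 7138 and 6096, a log2 fold change of -0.09. Its paralogue INTS6L, whose symbol falls outside the rule, read 243 and 336 against 321 and 274, a log2 fold change of 0.05, at 4.68 signal per kb in control beside 76.5 for INTS6. The groups of both overlap. INTS5 read 2559 and 2298 against 2752 and 2308 (log2 fold change 0.06), with 55.9% of its span shared, and INTS8 had a log2 fold change of -0.01. INTS3 read 7138 and 6846 against 6887 and 7518, a log2 fold change of 0.04. INTS12, a small subunit, had a log2 fold change of -0.10, with 71.1% of its span shared.

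The SD of the differences between replicates was close to that between groups with MED13L counted, and larger without it. These SDs are not on a like scale, as set out below. Over the 47 genes, the SD of the log2 difference was 0.187 between the control libraries, 0.200 between the auxin libraries and 0.186 between the group means, a mean of 2 libraries on each side. Without MED13L the SDs were 0.186, 0.197 and 0.125 in the same order. A mean of 2 libraries varies less than 1 library, so the replicate and group SDs are not directly comparable. The between-replicate values of MED13L lay within the range of the other members, as the plot of replicate differences shows. Of the 14 Integrator genes, 12 were lower in auxin replicate 2 than in replicate 1, with a median difference of -0.085. Without auxin replicate 2, the Integrator median was -0.034.

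**Figure D4:**
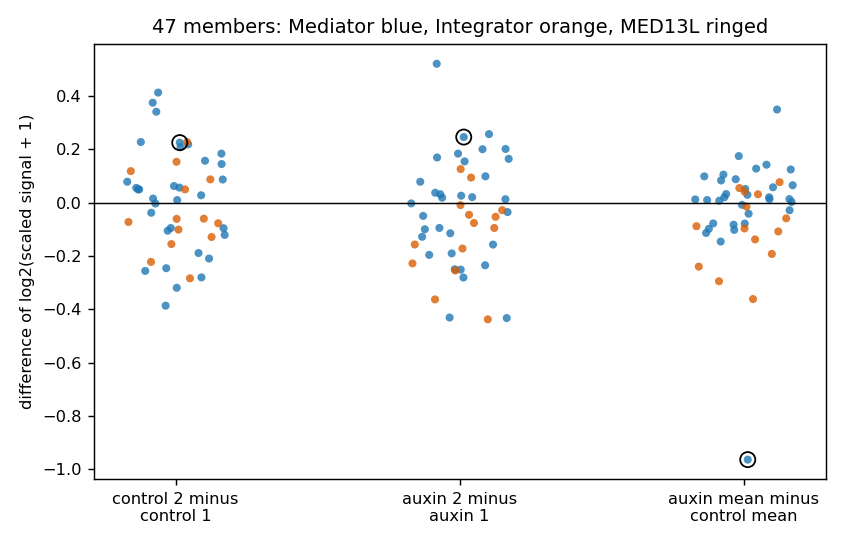
Log2 differences of the 47 genes between the control libraries, between the auxin libraries and between the group means (Mediator blue, Integrator orange, MED13L ringed). The SDs are 0.187, 0.200 and 0.186, and MED13L lies at -0.96 only in the comparison of groups.

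Levels and spans varied widely among members. Signal per kb in control ran from 6.96 (MED12L) to 435 (MED10) in Mediator, with a median of 170 (163 in auxin), and from 16.4 (INTS12) to 525 (INTS11) in Integrator, with a median of 91.7 (89.3 in auxin). Spans ran from 2.18 to 350.2 kb. Of 9 members of at least 100 kb, MED13L was the only one called, and their median log2 fold change was 0.032. Since the table does not separate overlapping genes, 33 of the 47 share part of their span with another tested gene, and 7 share at least 50%. The 14 members that share none had a median log2 fold change of -0.013. In this group 2 genes had a log2 fold change of at least 0.2 in size, INTS10 and INTS13.

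Of the members, 14 have a protein-coding gene that starts within 1000 bases on the opposite strand, 15 pairs in all. None of these neighbours was called, and in 8 of 15 pairs the log2 fold changes had the same sign. FGFR1OP2, 489 bases from INTS13, read 2575 and 2718 in control and 2891 and 2921 in auxin, a log2 fold change of 0.14 beside the -0.36 of INTS13. BYSL, 360 bases from MED20, read 5918 and 5897 against 5181 and 5297, a log2 fold change of -0.17 beside 0.35. In both pairs the neighbour's groups separate in the direction opposite to the member's. The largest neighbour values were those of DTL beside INTS7 (-0.94, limma adjusted p 0.124) and ENPP3 beside MED23 (0.83, limma adjusted p 0.12).

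RefSeq promoter windows were at hand for 35 of the 47 members, 40 windows in all, and MED6, MED8, MED13, MED14, MED21, MED22, MED28, MED30, INTS5, INTS8, INTS9 and INTS10 had no entry. The windows were searched on both strands and compared with all 35116 windows of 300 bases and with the 22199 windows of protein-coding genes. A TATA box (TATAAA) was in 5.0% of member windows, 11.5% of all and 9.47% of protein-coding ones. A CCAAT box was in 42.5%, 34.6% and 34.7% in the same order, and a GC box in 65.0%, 45.0% and 56.3%. The ETS motif CCGGAAG was in 30.0% of member windows, 10.3% of all and 12.8% of protein-coding ones. The NRF1 motif was in 22.5%, 5.78% and 7.39%, and the YY1 motif in 10.0%, 0.849% and 1.18%. The CTCF core motif was in 1 member window, that of MED26, in 0.0655% of all windows and in 0.0811% of protein-coding ones. Median G and C content was 61.5% for members, above the 58.7% of all windows and below the 62.3% of protein-coding ones. The median number of CpG pairs was 23.5 for members, 14 for all windows and 21 for protein-coding ones. Some of these motifs are themselves rich in G and C, and the shares are a description of the windows.

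Genes that work with the complexes were also not called. The 11 Integrator partners in the table include PP2A subunits and the arm subunit C7orf26. Of these, 8 had positive and 3 negative log2 fold changes, with a median of 0.026. PPP2CB, a catalytic subunit of PP2A, had the smallest p, with 6494 and 6519 in control and 8015 and 8507 in auxin and a log2 fold change of 0.34 (limma adjusted p 0.323). The 13 Pol II subunit genes had 4 positive and 9 negative values and a median of -0.090, and POLR2B, which had the smallest p among them, was at -0.27 (limma adjusted p 0.49). Among 31 general transcription factor genes, 14 were positive and 17 negative, with a median of -0.037. GTF2F2, a TFIIF subunit, read 21053 and 24209 against 14931 and 19080.5, a log2 fold change of -0.42 (limma adjusted p 0.261). Its value was -0.60 without auxin replicate 2, which leaves 1 auxin library. Of 15 genes for snRNAs, whose 3′ ends Integrator makes, 9 were positive and 6 negative, with a median of 0.043. These snRNA genes were low, with a median signal of 171 and a median standard error of 0.29, beside 0.15 for the members. Their summed scaled signal ran from 2132 to 3185 in control and from 2519 to 2850 in auxin. RNU7-1, with the smallest p among them, read 19.5 and 28.7 against 17.9 and 22.5. Over these 4 lists, of 11, 13, 31 and 15 tested genes, 3 genes had a limma unadjusted p under 0.05, 2 higher and 1 lower. Among all tested genes 10.2% did.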

How the data were processed

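Scaled signal per gene was taken from the table the authors deposited for 4 libraries. Its scaling is not given in the sources used here. The values are not whole reads, so no count test was used. The submitters' processing notes name hg38, dm6, Trimmomatic 0.39, Bowtie2 2.4.5 and deepTools 3.5.1, without saying what each was used for. Groups were taken from sample titles. Genes with at least 10 (at median library total) in 2 libraries and a total of at least 15 were kept. Libraries were scaled by a trimmed mean of log ratios (30% of ratios and 5% of levels trimmed), and log2(value + 1) was tested with limma 3.58.1 in R 4.3.3 (moderated with a trend, two-sided, Benjamini-Hochberg over 39464 genes, threshold 0.05). A fold change on this scale understates the change of low genes. Starts in the table count from 0 and are given from 1. Members and lists were chosen with earlier results of these data known. Library values are given for members with an unadjusted p under 0.05, the 3 most positive and negative of each complex, paralogues, and central subunits. The remaining members are given by range. MED10 was added for its separated groups. The number of libraries limits precision.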

Additional observations from a re-analysis of the deposited data

How the results depend on the processing

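Of 13 alternative fits, MED13L was called in 12, with log2 fold changes from -1.09 to -0.83. On the deposited scale it was -0.98 and not called, and 0 members were (55 of all genes, 0.139%). Leaving out each library in turn gave MED13L values from -1.09 to -0.83. Such fits rest on 1 library in 1 group, and how many genes they call differs widely. The replicate numbers mark no stated pairing (r = 0.231 between the groups' replicate differences). With the number as a replicate block, 4 members were called, 1 higher (MED20, 0.35) and 3 lower (MED13L, INTS13 at -0.36 and INTS10 at -0.29), as were 6 partner genes and 4273 genes in all (10.8%). In that fit the prior degrees of freedom were infinite. Each gene's variance was therefore the trend over genes of like level, and its own spread did not enter. At a limma unadjusted p under 0.05, 2 members and 3 partner genes passed, beside 10.2% of all tested genes. Among partner genes, GTF2F2 was at -0.60 without auxin replicate 2. The Mediator median of 0.014 became 0.049 with scaling by library total and -0.0057 on the deposited scale. The median over all tested genes moved alongside, from 0.0089 to 0.044 and -0.0102 in the same order. The Mediator median was 0.066 in members that overlap no tested gene, and 0.019 to 0.044 without each library in turn. The Integrator median of -0.092 became -0.19 in members that overlap no tested gene and -0.093 to -0.034 without each library in turn. In those fits INTS1 ranged from -0.40 to 0.026, INTS10 from -0.47 to -0.11, INTS7 from -0.24 to -0.024 and MED27 from 0.041 to 0.25. Of 39 members with a change below its standard error, 51 of 507 alternative values had the other sign. The cause of these shifts was not tested. Depth is unknown.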
